A study of Homo sapiens with 12 samples.

Results

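The 30 genes described here encode subunits of the 3 nuclear RNA polymerases and 1 protein bound to RNA polymerase II, and they are 30 of the 16172 genes in the deposited table. They were chosen by name, as every gene whose symbol is POLR1, POLR2 or POLR3 followed only by letters, with 1 symbol that matches the same pattern left out and not analysed here. All 30 had a mean TPM across the 12 libraries of 1 or more, which was the filter on low values. RNA polymerase I transcribes the large ribosomal RNA precursor, RNA polymerase II makes mRNAs, and RNA polymerase III makes tRNAs, 5S ribosomal RNA and other small RNAs. Each enzyme has a pair of large subunits that form the catalytic centre, around which smaller subunits assemble, some specific to 1 enzyme and some shared by several. The mRNAs of all these proteins are made by RNA polymerase II and translated on cytoplasmic ribosomes, so their share of polysomal RNA can be set against their share of the whole lysate.

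The cells were NCI-H1299, an established line from a human non-small-cell lung cancer. They had been transfected with siRNAs, short double-stranded RNAs that direct the destruction of a matching mRNA, and were lysed 72 h later. The target was EIF3G, the mRNA of a subunit of eIF3, the initiation factor that helps recruit the small ribosomal subunit to mRNAs. Polysomes, mRNAs that carry several ribosomes, were collected from sucrose gradients of 10% to 50%, and 10% of the lysate was kept as input. The 12 libraries form 4 groups of 3: siEIF3G polysomal, siEIF3G input, siCtrl polysomal and siCtrl input. In the siEIF3G groups 2 siRNAs were mixed in equal amounts, and in the siCtrl groups a control siRNA was used. No other genotype or agent separates the groups. Whether replicates came from separate cultures is not stated in the labels. A p-value here therefore sets a difference between groups against the spread of these libraries, and that spread may be technical. The strands of the siRNAs that the labels give are shown because they define the 2 arms of the knockdown comparison.
siEIF3G-4: gaacaaactcaagggccagaa
siEIF3G-5: gaggtcatcaacggaaacata
siCtrl: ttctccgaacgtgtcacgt

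EIF3G had 69.2 to 143 TPM in siEIF3G and 1679.9 to 1916 TPM in siCtrl polysomal libraries, and 47.3 to 84.7 TPM in siEIF3G and 878 to 1158 TPM in siCtrl input libraries. Its mean in siEIF3G cells was 6.38% of that in siCtrl cells in polysomal RNA and 6.16% of it in input RNA. The epithelial keratin mRNAs KRT8 and KRT18 and the mesenchymal VIM mRNA were present in all 12 libraries, at 108 TPM or more, and CD14, PECAM1, ALB and DES did not exceed 0.24 TPM in any. There were 3 libraries that correlated better with the other fraction of the same siRNA than with their own group: siEIF3G polysomal replicate 3, siEIF3G input replicate 2 and siCtrl input replicate 1. Whether fractions were mixed or labels exchanged in them cannot be told from the labels, so what their polysomal and input values stand for is in doubt. In all 3, POLR2G and POLR2K, described below, lay on the side of their labelled fraction. The counts of members called in each comparison, the large catalytic subunits and some other members are given with and without these 3 libraries. These 3 were set apart for resembling the other fraction, so leaving them out tends to widen the gap between fractions by construction. It also leaves fewer libraries in the siEIF3G polysomal, siEIF3G input and siCtrl input groups. Values without them are therefore no check on the differences between fractions. Other results, among them the lists of factors and the relation to level, are given with all 12 libraries only. TPM are shares of a library and keep no read depth, so the depth behind each value is unknown.

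In polysomal RNA, relative to input RNA and averaged over both siRNAs, the large catalytic subunits were lower, 5 of 5 past the test with values as deposited or with size factors and 3 of 5 with quantile normalization. The smaller subunits were divided. POLR2G, the RPB7 stalk subunit of RNA polymerase II, was the member with the largest rise, 2.12 ± 0.15 on the log2(TPM + 1) scale (± SE). POLR2K, a zinc-binding subunit common to the 3 enzymes, had the largest fall, -2.64 ± 0.27. At an adjusted p under 0.05 in limma, 17 of the 30 members changed, 6 higher and 11 lower. Over all 10605 genes tested, 58.2% were called in this comparison, 12.9% higher and 45.3% lower, and the median log2 difference was -0.75. The share of members called is near this background, so the count is not a result about the polymerase genes. Rescaling with size factors moved the median of all genes to -0.03, and 10 members were then called higher and 8 lower, with 30.0% of all genes higher and 21.3% lower. Without the 3 libraries named above, 26 members were called, 7 higher and 19 lower, against 81.3% of all genes. In bulk libraries, fewer cells with an mRNA on polysomes and less of that mRNA on polysomes per cell cannot be told apart.

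**Figure D1:**
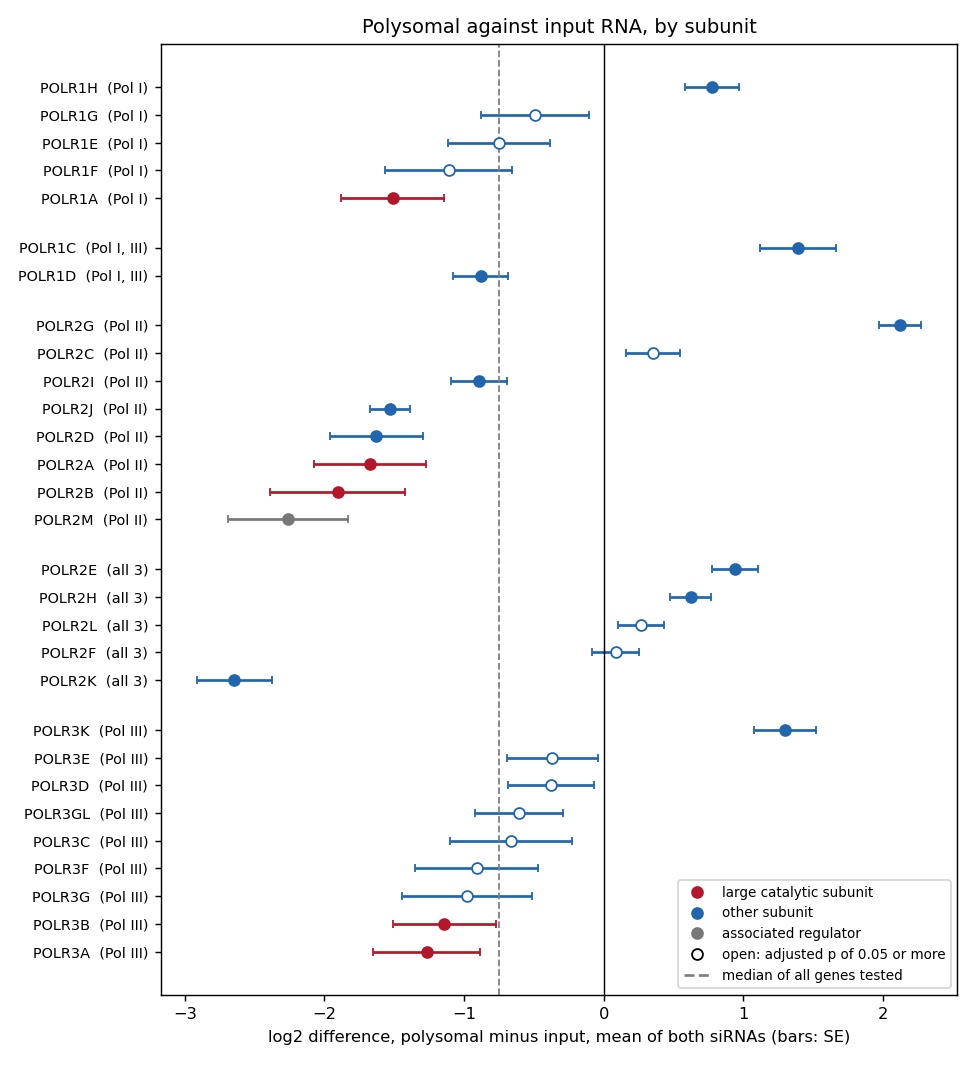
The x axis gives the log2 difference between polysomal and input RNA, as the mean of both siRNAs on log2(TPM + 1), and each row is 1 of 29 members, grouped by the polymerase it belongs to. Points are limma estimates with SE bars, filled points have an adjusted p under 0.05, and the dashed line is the median of all genes tested, -0.75. The 5 large catalytic subunits lie left of that line, between -1.90 and -1.14, and the other subunits run from -2.64 to 2.12.

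POLR1A, POLR2A and POLR3A encode the largest subunit of RNA polymerases I, II and III. The protein of POLR2A carries the repeated C-terminal domain that is phosphorylated during the transcription cycle. POLR2A had 7.01, 15.6 and 9.42 TPM in siEIF3G cells and 12.96, 4.3 and 4.22 TPM in siCtrl cells in polysomal RNA. In input RNA it had 29.5, 17.6 and 44.6 TPM in siEIF3G cells and 11.2, 36.2 and 47.1 TPM in siCtrl cells. The fractions overlapped through siCtrl input replicate 1, which lay below the 2 highest polysomal libraries, and the fitted difference was -1.68 ± 0.40 with an adjusted p of 0.00907. POLR1A was expressed at a lower level, 1.41, 1.36 and 3.53 TPM in siEIF3G cells and 1.36, 0.88 and 0.5 TPM in siCtrl cells in polysomal RNA. In input RNA POLR1A had 7.1, 3.37 and 9.61 TPM in siEIF3G cells and 1.86, 7.07 and 9.59 TPM in siCtrl cells. Its difference was -1.51 ± 0.37 (adjusted p = 0.00968), and siCtrl input replicate 1 and siEIF3G input replicate 2 lay below the highest polysomal library. POLR3A had 2.07, 1.48 and 4.77 TPM in siEIF3G cells and 1.29, 0.89 and 0.46 TPM in siCtrl cells in polysomal RNA. Input RNA held POLR3A at 6.61, 2.77 and 8.57 TPM in siEIF3G cells and 1.63, 6.71 and 8.74 TPM in siCtrl cells. The difference of -1.27 ± 0.38 had an adjusted p of 0.0203, and siEIF3G polysomal replicate 3 lay above 2 of the 6 input libraries.

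POLR2B and POLR3B encode the second largest subunit of RNA polymerases II and III, which forms the other side of the active site cleft. POLR2B had 7.12, 7.87 and 14.9 TPM in siEIF3G cells and 3.3, 3.13 and 1.34 TPM in siCtrl cells in polysomal RNA. In input RNA POLR2B was at 30.4, 7.25 and 36.3 TPM in siEIF3G cells and 7.23, 33.3 and 47.1 TPM in siCtrl cells. The siCtrl polysomal libraries were lowest and separate from the siCtrl input libraries. Both siEIF3G polysomal replicate 2 and replicate 3 exceeded siEIF3G input replicate 2 and siCtrl input replicate 1. The fitted difference was -1.90 ± 0.48 (adjusted p = 0.0114). POLR3B, the member with the lowest levels, had 0.3, 0.41 and 1.57 TPM in siEIF3G cells and 0.18, 0.36 and 0.14 TPM in siCtrl cells in polysomal RNA. Its input values were 3.47, 0.87 and 2.88 TPM in siEIF3G cells and 0.3, 2.94 and 4.95 TPM in siCtrl cells. The fractions overlapped through siCtrl input replicate 1, inside the polysomal range of both siRNAs, and siEIF3G input replicate 2. The pseudocount of 1 TPM compresses differences at such levels, and the fitted value was -1.14 ± 0.37 (adjusted p = 0.0247). The calls of POLR3A and POLR3B were marginal: leaving out siEIF3G polysomal replicate 1 or 2, siEIF3G input replicate 1 or 3, siCtrl polysomal replicate 3 or siCtrl input replicate 2 raised the adjusted p of POLR3A to between 0.0504 and 0.0572 and that of POLR3B to between 0.0536 and 0.0658. Leaving out siCtrl input replicate 3 also raised that of POLR3B, to 0.0585. Quantile normalization ended both calls and reduced the differences, to -0.37 for POLR3A (adjusted p = 0.0939) and -0.40 for POLR3B (adjusted p = 0.0636). With size factors the 5 large subunits stood between -1.13 for POLR2B and -0.64 for POLR3A, and all were called. With the 3 libraries that stand apart left out, all 5 large subunits were called, at -2.78 for POLR2B, -2.13 for POLR1A, -2.12 for POLR2A, -1.93 for POLR3A and -1.80 for POLR3B.

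**Figure D2:**
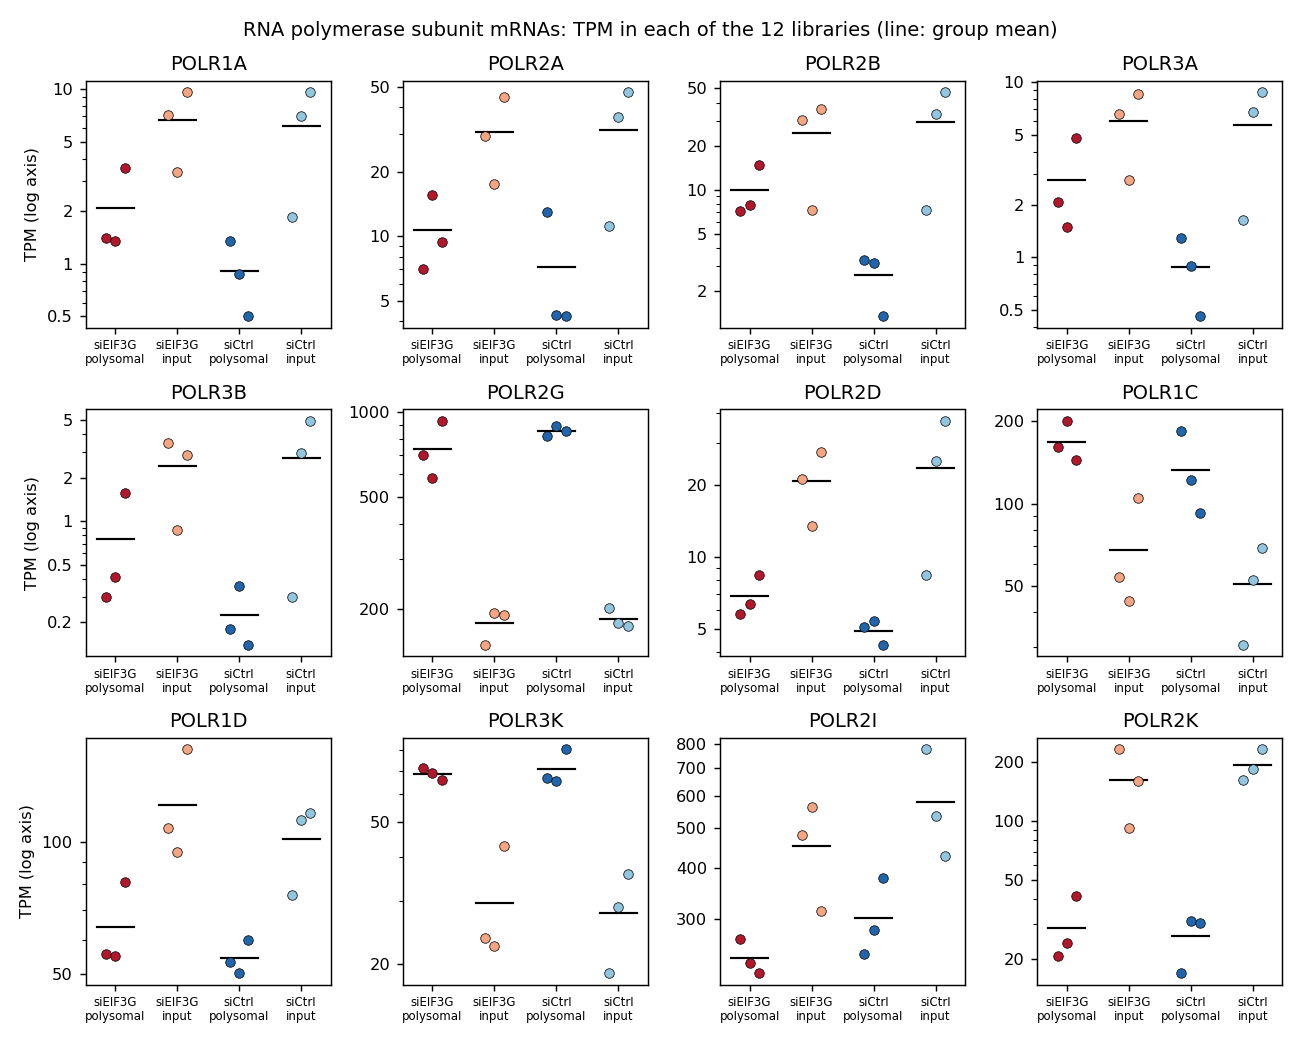
Each panel gives the TPM of 1 member on a log axis in the 4 groups, with 1 point per library in the order of its replicate number and a line at the group mean (n = 3). The large catalytic subunits POLR1A, POLR2A, POLR2B, POLR3A and POLR3B were lower in polysomal than in input RNA with overlapping libraries, while the 6 polysomal libraries of POLR2G and POLR3K lay above all 6 input libraries and those of POLR2K lay below them.

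The large catalytic subunits were then set against the smaller subunits within each library. The median log2(TPM + 1) of the 5 large subunits minus that of the 24 other subunits was -3.58, -3.95 and -2.87 in siEIF3G polysomal RNA and -4.07, -4.42 and -4.86 in siCtrl polysomal RNA. In input RNA this difference was -2.38, -3.09 and -2.47 in siEIF3G cells and -3.18, -2.52 and -2.38 in siCtrl cells. The siCtrl polysomal libraries were lowest and lay apart from all input libraries. For siEIF3G, polysomal replicate 3 fell inside the input range, and the lowest input values were those of the 2 input libraries that stand apart. Without these 3 libraries the fractions did not overlap, an outcome that their choice by resemblance to the other fraction favours. Fitted as medians over genes, the large subunits stood at -1.51 and the other 24 subunits at -0.44, or -0.76 and 0.32 relative to the median of all genes. Among the 24 other subunits, 6 were called higher and 5 lower, where 12.9% of all genes tested were called higher and 45.3% lower.

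**Figure D3:**
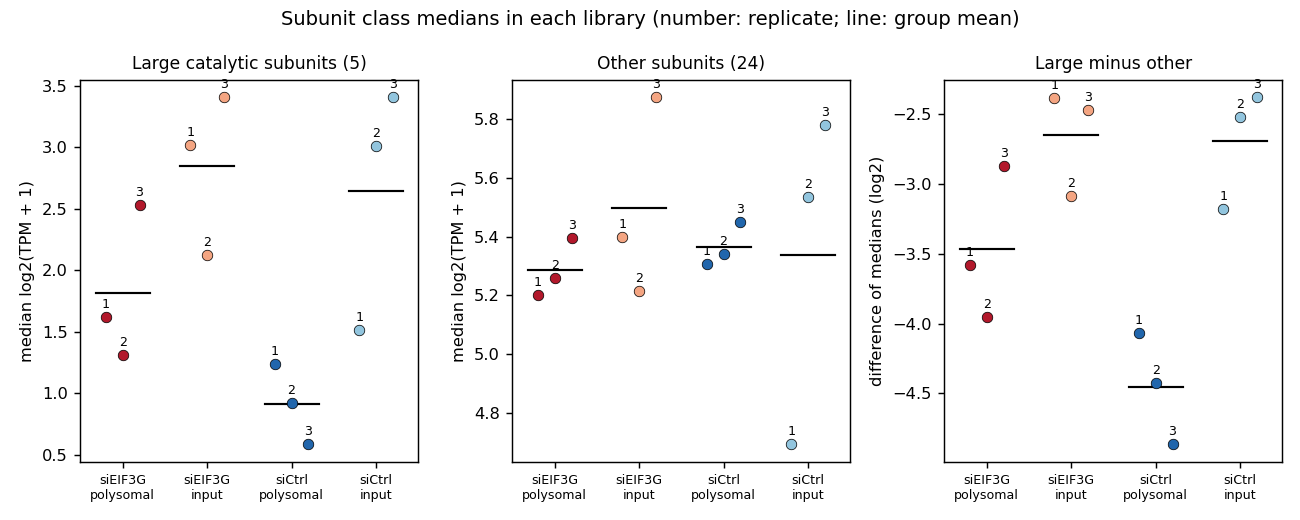
The left and middle panels give the median log2(TPM + 1) of the 5 large catalytic subunits and of the 24 other subunits in each library, and the right panel gives the first minus the second. Points are libraries marked with their replicate number and lines are group means (n = 3). The large subunits were lowest in the siCtrl polysomal libraries, and the difference in siEIF3G polysomal replicate 3, -2.87, lies inside the range of the input libraries.

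The large subunits are also among the less abundant members. Across the 30 members, the polysomal minus input difference was larger for mRNAs with a higher mean log2(TPM + 1), with a Spearman rho of 0.57. The rho was 0.51 over the 24 other subunits alone and 0.41 over the 10605 genes tested. These correlations are across genes of the same 12 libraries, which are not independent, and are given as descriptions. The separate parts of subunit class and of level in the differences were not tested.

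The assembly platform, on which the large subunits are built up, is a heterodimer of alpha-like proteins: POLR1C with POLR1D in RNA polymerases I and III, and POLR2C with POLR2J in RNA polymerase II. The 2 partners of each pair moved unequally. POLR1C had 160.5, 201 and 144 TPM in siEIF3G cells and 185, 122 and 92.5 TPM in siCtrl cells in polysomal RNA. In input RNA it had 53.7, 44.2 and 104 TPM in siEIF3G cells and 30.4, 52.5 and 69.05 TPM in siCtrl cells. Only siEIF3G input replicate 3 reached into the polysomal range, and POLR1C rose by 1.39 ± 0.27 (adjusted p = 0.00349). POLR1D had 55.6, 55.2 and 80.9 TPM in siEIF3G cells and 53.3, 50.3 and 59.9 TPM in siCtrl cells in polysomal RNA. Its input values were 107, 94.7 and 162 TPM in siEIF3G cells and 75.8, 112 and 116 TPM in siCtrl cells. POLR1D fell, with a difference of -0.88 ± 0.20 (adjusted p = 0.00703) and an overlap of siEIF3G polysomal replicate 3 with siCtrl input replicate 1. This fall is near the median of all genes, and with size factors it was -0.00. With quantile normalization it was -0.97 and called (adjusted p = 0.00325). The ratio of POLR1C to POLR1D within a library does not depend on a scaling factor common to all its genes, such as a size factor. Quantile normalization can change this ratio, which was taken from the deposited values only. The ratio was between 1.54 and 3.64 in the 6 polysomal libraries and between 0.401 and 0.644 in the 6 input libraries, with no overlap.

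POLR2J had 71.98, 74.2 and 74.3 TPM in siEIF3G cells and 97.02, 97.5 and 113 TPM in siCtrl cells in polysomal RNA. In input RNA it had 229, 259.9 and 198 TPM in siEIF3G cells and 280.0, 308 and 253 TPM in siCtrl cells. All polysomal libraries were below all input libraries, and the difference was -1.53 ± 0.14 (adjusted p = 3.7e-05), or -0.65 and not called (adjusted p = 0.141) with size factors. With quantile normalization it was -1.70 and called (adjusted p = 3.9e-05). POLR2J has the near-identical copies POLR2J2 and POLR2J3, whose reads the authors' counting could have split with it, so its level is uncertain. Its partner POLR2C, at 96.3 to 119.5 TPM in polysomal and 51.9 to 102 TPM in input libraries, had a difference of 0.35 ± 0.19 (adjusted p = 0.126), or 1.23 and called (adjusted p = 0.00505) with size factors. With quantile normalization POLR2C was at 0.25 and not called (adjusted p = 0.260). The ratio of POLR2C to POLR2J was between 0.907 and 1.66 in the polysomal libraries and between 0.185 and 0.491 in the input libraries. These ratios, like those of the other heterodimers below, were chosen after the members' values had been seen and carry no test.

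The stalk of the polymerases lies near the RNA exit channel and in RNA polymerase II is the heterodimer of POLR2D and POLR2G. These partners moved in opposite directions. POLR2G had 701, 581 and 930.5 TPM in siEIF3G cells and 823, 889.9 and 855 TPM in siCtrl cells in polysomal RNA. In input RNA POLR2G had 149, 193 and 190.1 TPM in siEIF3G cells and 200.2, 178 and 173 TPM in siCtrl cells. The lowest polysomal library was far above the highest input library, and the adjusted p was 5.4e-06. POLR2D had 5.77, 6.37 and 8.42 TPM in siEIF3G cells and 5.09, 5.41 and 4.3 TPM in siCtrl cells in polysomal RNA. In input RNA POLR2D had 21.2, 13.5 and 27.3 TPM in siEIF3G cells and 8.39, 25.2 and 36.98 TPM in siCtrl cells. Only siCtrl input replicate 1 lay inside the polysomal range, and POLR2D fell, with a difference of -1.63 ± 0.33 (adjusted p = 0.00458). Within libraries, POLR2G exceeded POLR2D by a factor of 91.2 to 199 in polysomal RNA and of 4.69 to 23.9 in input RNA, with the 2 libraries of siCtrl input replicate 1 and siEIF3G input replicate 2 giving the highest input ratios. POLR1F, a stalk subunit of RNA polymerase I, missed the threshold. It was at 0.84 to 3.74 TPM in polysomal and 1.09 to 10.6 TPM in input libraries (log2 difference -1.11 ± 0.46, adjusted p = 0.05102). POLR1F was called lower without the 3 libraries that stand apart, at -1.96 (adjusted p = 2.9e-06), without any 1 of them, at -1.47 to -1.31, and with a pseudocount of 5 TPM, at -0.58 (adjusted p = 0.047).

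POLR1H, POLR2I and POLR3K are related zinc-ribbon subunits that take part in cleaving the nascent RNA in a stalled complex, as the elongation factor TFIIS does, or in fidelity. The subunits of RNA polymerases I and III rose and that of RNA polymerase II fell. POLR3K had 71.1, 68.8 and 66.05 TPM in siEIF3G cells and 66.6, 65.4 and 80.4 TPM in siCtrl cells in polysomal RNA. In input RNA POLR3K had 23.6, 22.5 and 42.96 TPM in siEIF3G cells and 18.8, 28.9 and 35.8 TPM in siCtrl cells. The polysomal libraries were close together and all above the input libraries, with a difference of 1.3 ± 0.22 (adjusted p = 0.00164). POLR1H had 390.1, 325 and 463 TPM in siEIF3G cells and 315, 366 and 391 TPM in siCtrl cells in polysomal RNA. In input RNA POLR1H had 208, 329 and 181 TPM in siEIF3G cells and 267, 197 and 158 TPM in siCtrl cells. The fractions overlapped through siEIF3G input replicate 2, 1 of the libraries that stand apart, and the difference was 0.78 ± 0.19 (adjusted p = 0.0102). The gene overlaps an antisense transcribed pseudogene, POLR1HASP, and the use of strand in counting is not given in the sources used here, so reads of these 2 cannot be told apart. POLR2I had 268, 235 and 221 TPM in siEIF3G cells and 246, 281 and 378 TPM in siCtrl cells in polysomal RNA. In input RNA POLR2I had 480.4, 564 and 313 TPM in siEIF3G cells and 778, 535 and 427 TPM in siCtrl cells. The difference was -0.89 ± 0.20 (adjusted p = 0.00681), with siCtrl polysomal replicate 3 above siEIF3G input replicate 3, and it was -0.01 with size factors. With quantile normalization it was -1.13 and called (adjusted p = 0.00122).

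Of the 5 subunits common to the 3 enzymes, POLR2E and POLR2H rose, POLR2K fell, and POLR2F and POLR2L did not pass the test. POLR2K had 20.6, 23.98 and 41.8 TPM in siEIF3G cells and 16.8, 31.03 and 30.3 TPM in siCtrl cells in polysomal RNA. Input RNA held POLR2K at 232, 91.95 and 160.5 TPM in siEIF3G cells and 163, 183 and 232 TPM in siCtrl cells. The highest polysomal library was below the lowest input library, and the adjusted p was 6.8e-05. POLR2E, part of the jaw that grips downstream DNA, had 509, 497 and 359.8 TPM in siEIF3G cells and 541, 675 and 713 TPM in siCtrl cells in polysomal RNA. In input RNA POLR2E had 222, 312 and 216 TPM in siEIF3G cells and 351, 333 and 269 TPM in siCtrl cells. All polysomal libraries were above all input libraries, with a difference of 0.94 ± 0.16 (adjusted p = 0.00187). POLR2H had 205, 181 and 191 TPM in siEIF3G cells and 252, 273 and 323 TPM in siCtrl cells in polysomal RNA. In input RNA POLR2H had 118, 159.9 and 144 TPM in siEIF3G cells and 145, 185 and 161 TPM in siCtrl cells. Its rise of 0.62 ± 0.15 (adjusted p = 0.00895) was smaller and siEIF3G polysomal replicate 2 lay below siCtrl input replicate 2. With quantile normalization the POLR2H call was lost, at 0.43 (adjusted p = 0.0532). POLR2F was at 40.5 to 90.2 TPM in polysomal and 44.5 to 71.5 TPM in input libraries, and POLR2L at 215 to 404 TPM and 180.1 to 305 TPM. The differences of POLR2F and POLR2L were 0.09 ± 0.17 and 0.27 ± 0.16, and with size factors both were called, at 0.96 and 1.15. POLR2L was also called without the 3 libraries that stand apart, at 0.44 (adjusted p = 0.0199). With quantile normalization neither was called, at 0.11 for POLR2F (adjusted p = 0.703) and 0.05 for POLR2L (adjusted p = 0.826).

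Across the 12 libraries, 3 members lay higher in every polysomal than in every input library (POLR2E, POLR2G and POLR3K), against 5.27% of all genes tested, and 2 lay lower in every one (POLR2J and POLR2K), against 4.40% of all genes. Without the 3 libraries that stand apart these counts were 5 and 18, against 15.2% and 58.5% of all genes.

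The remaining subunits form modules that resemble general transcription factors and were not called. POLR1E and POLR1G of RNA polymerase I, and POLR3D and POLR3E of RNA polymerase III, form heterodimers related to TFIIF. Their differences were -0.75 ± 0.37, -0.49 ± 0.38, -0.38 ± 0.31 and -0.37 ± 0.33. The partners POLR3D and POLR3E kept nearly equal levels in both fractions, with a ratio between 0.827 and 1.17 in polysomal libraries and between 0.820 and 1.17 in input libraries. POLR3C, POLR3F and either POLR3G or its paralogue POLR3GL form a heterotrimer related to TFIIE that serves initiation by RNA polymerase III. The differences were -0.66 ± 0.44 for POLR3C, -0.91 ± 0.44 for POLR3F, -0.98 ± 0.47 for POLR3G and -0.61 ± 0.32 for POLR3GL. The interchangeable subunits were expressed together: POLR3G at 2.29 to 16.3 TPM in polysomal and 3.8 to 19.4 TPM in input libraries, and POLR3GL at 10.3 to 23.6 TPM and 11.3 to 39.3 TPM. Without the 3 libraries that stand apart, POLR1E, POLR3C, POLR3D, POLR3E, POLR3F, POLR3G and POLR3GL were all called lower, at -1.86 for POLR3G to -0.72 for POLR3D, and POLR1G had -0.56 (adjusted p = 0.172). With size factors the sign turned for POLR1E, POLR1G, POLR3C, POLR3D, POLR3E and POLR3GL, which stood between 0.11 and 0.44 and were not called. Quantile normalization turned the sign of POLR1G, POLR3C, POLR3D, POLR3E and POLR3F, none of them called.

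POLR2M, known as Gdown1, is a protein that binds RNA polymerase II and is not a core subunit. It had 1.3, 1.34 and 3.39 TPM in siEIF3G cells and 0.64, 1.23 and 0.8 TPM in siCtrl cells in polysomal RNA. In input RNA POLR2M had 16.7, 4.66 and 12.1 TPM in siEIF3G cells and 3.16, 13.8 and 22.1 TPM in siCtrl cells. The input libraries of siCtrl replicate 1 and siEIF3G replicate 2 were again the lowest of the input libraries, the first below siEIF3G polysomal replicate 3, and POLR2M fell, with a difference of -2.26 ± 0.43 (adjusted p = 0.00314).

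Between the 3 enzymes, the specific members of RNA polymerase II had the lowest median log2 difference between polysomal and input RNA. The median was -1.58 over the 8 of RNA polymerase II, with 1 called higher and 6 lower. These 8 include POLR2M, which is not a core subunit and was the lowest of them. The median was -0.75 over the 5 of RNA polymerase I, with 1 higher and 1 lower, and -0.64 over the 10 of RNA polymerase III, with 1 higher and 2 lower. The 5 common subunits had a median of 0.27, with 2 higher and 1 lower. Of all genes tested, 12.9% were called higher and 45.3% lower. Relative to the median of all genes these are -0.83, 0.00, 0.12 and 1.02. Each enzyme had members on both sides of 0: POLR2G and POLR2M bound the range of RNA polymerase II, POLR1H and POLR1A that of RNA polymerase I, and POLR3K and POLR3A that of RNA polymerase III. The sets hold only genes whose symbol matches the naming rule. CRCP, a subunit named otherwise, is not in them and fell, at -1.90 ± 0.36 (adjusted p = 0.00306). Sets this small were described and not tested.

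In siEIF3G cells alone, 4 of the 30 members differed between polysomal and input RNA, 2 higher and 2 lower, where 3.14% of all genes were called, 1.81% higher and 1.33% lower. In siCtrl cells alone 16 members did, 6 higher and 10 lower, where 36.9% of all genes were called, 7.98% higher and 28.9% lower. The 4 in siEIF3G cells were POLR2G (2.03 ± 0.21, adjusted p = 0.000491), POLR3K (1.24 ± 0.31, adjusted p = 0.0482), POLR2J (-1.62 ± 0.20, adjusted p = 0.00136) and POLR2K (-2.42 ± 0.38, adjusted p = 0.00595). The POLR3K call was lost, at an adjusted p of 0.0547 to 0.226, with no filter, size factors, no trend, only the groups compared, or any 1 of 8 libraries left out: siEIF3G polysomal replicate 1 or 2, siEIF3G input replicate 1 or 2, any siCtrl polysomal replicate or siCtrl input replicate 2. Size factors also ended those of POLR2J (-1.02, adjusted p = 0.238) and POLR2K (-1.82, adjusted p = 0.0692), and leaving out siEIF3G polysomal replicate 1 that of POLR2K (adjusted p = 0.0503). Of the large catalytic subunits, 0 of 5 were called lower in siEIF3G cells and 4 of 5 in siCtrl cells. Without the 3 libraries that stand apart, 5 of 5 were called lower in both, at -2.01 for POLR2B to -1.62 for POLR3B in siEIF3G cells and -3.55 for POLR2B to -1.99 for POLR3B in siCtrl cells. With all 12 libraries, POLR2B showed the widest gap, with -1.03 ± 0.68 in siEIF3G cells and -2.78 ± 0.68 in siCtrl cells. The difference between these effects, which was tested itself, was 1.76 ± 0.97 for POLR2B (adjusted p = 0.908), and no member passed, the smallest adjusted p among them being 0.908. In that test 0% of all genes were called. At an unadjusted p under 0.05, 0 members and 19 of all genes passed. In siEIF3G cells without siEIF3G polysomal replicate 3, siEIF3G input replicate 2 and siCtrl input replicate 1, 22 members were called, against 71.1% of all genes, and in siCtrl cells 25 members against 75.1%. Single libraries also moved these counts. Without siCtrl input replicate 1, members called lower in siCtrl cells numbered 17, against 58.8% of all genes. Without siCtrl polysomal replicate 1, 2 or 3, or siCtrl input replicate 2 or 3, they numbered 2, against 0.537% to 1.09%. Without siEIF3G polysomal replicate 1 or 2, which enter through the shared spread, they numbered 5 and 6, against 6.52% and 9.41% of all genes.

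The knockdown was then compared with the control siRNA within each fraction. No member was called in polysomal RNA, where 0.0189% of all genes were called, or in input RNA, where 0.0189% were. At an unadjusted p under 0.05 in limma, 6 members and 709 genes of all tested passed in polysomal RNA, and 0 members and 144 genes in input RNA. The smallest adjusted p of a member was 0.650 in polysomal RNA and 1.00 in input RNA.

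In polysomal RNA the members with the largest differences between siEIF3G and siCtrl cells were POLR3C, POLR2B and POLR3F. POLR3C had 10.9, 10.9 and 22.7 TPM in siEIF3G polysomal RNA and 6, 3.77 and 1.82 TPM in siCtrl polysomal RNA, a log2 difference of 1.72 ± 0.62 (adjusted p = 0.6504). In input RNA POLR3C had 16.96, 7.67 and 32.7 TPM in siEIF3G cells and 3.22, 11.2 and 17.7 TPM in siCtrl cells. The polysomal groups did not overlap and the input groups did. For POLR2B, with the TPM values given above, the polysomal difference was 1.60 ± 0.68. For POLR3F it was 1.21 ± 0.62, with 2.72, 3.56 and 9.24 TPM in siEIF3G and 1.31, 2.27 and 0.87 TPM in siCtrl polysomal RNA. The median difference of all genes in polysomal RNA was 0.33.

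All siEIF3G polysomal libraries lay above all siCtrl polysomal libraries for 7 members (POLR1E, POLR2B, POLR2D, POLR2M, POLR3A, POLR3C and POLR3F), where 21.6% of all genes tested did so. They lay below them for 5 members (POLR2E, POLR2F, POLR2H, POLR2J and POLR2L), where 7.61% did. These 5 include 4 of the 5 subunits common to the 3 enzymes. In input RNA the siEIF3G libraries lay above the siCtrl libraries for 0 members, where 1.88% of all genes did, and below them for POLR2F alone, where 1.80% did. POLR2F had 51.3, 48.7 and 40.5 TPM in siEIF3G and 64.3, 74.5 and 90.2 TPM in siCtrl polysomal RNA. In input RNA it had 44.5, 49.2 and 51.4 TPM in siEIF3G and 71.5, 67.05 and 56.5 TPM in siCtrl cells. The log2 differences were -0.69 ± 0.24 in polysomal and -0.41 ± 0.24 in input RNA, neither past the test. Without the 3 libraries that stand apart the counts were 7 above and 6 below in polysomal RNA, against 25.5% and 9.44% of all genes, and 0 above and 8 below in input RNA, against 3.93% and 28.7%.

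**Figure D4:**
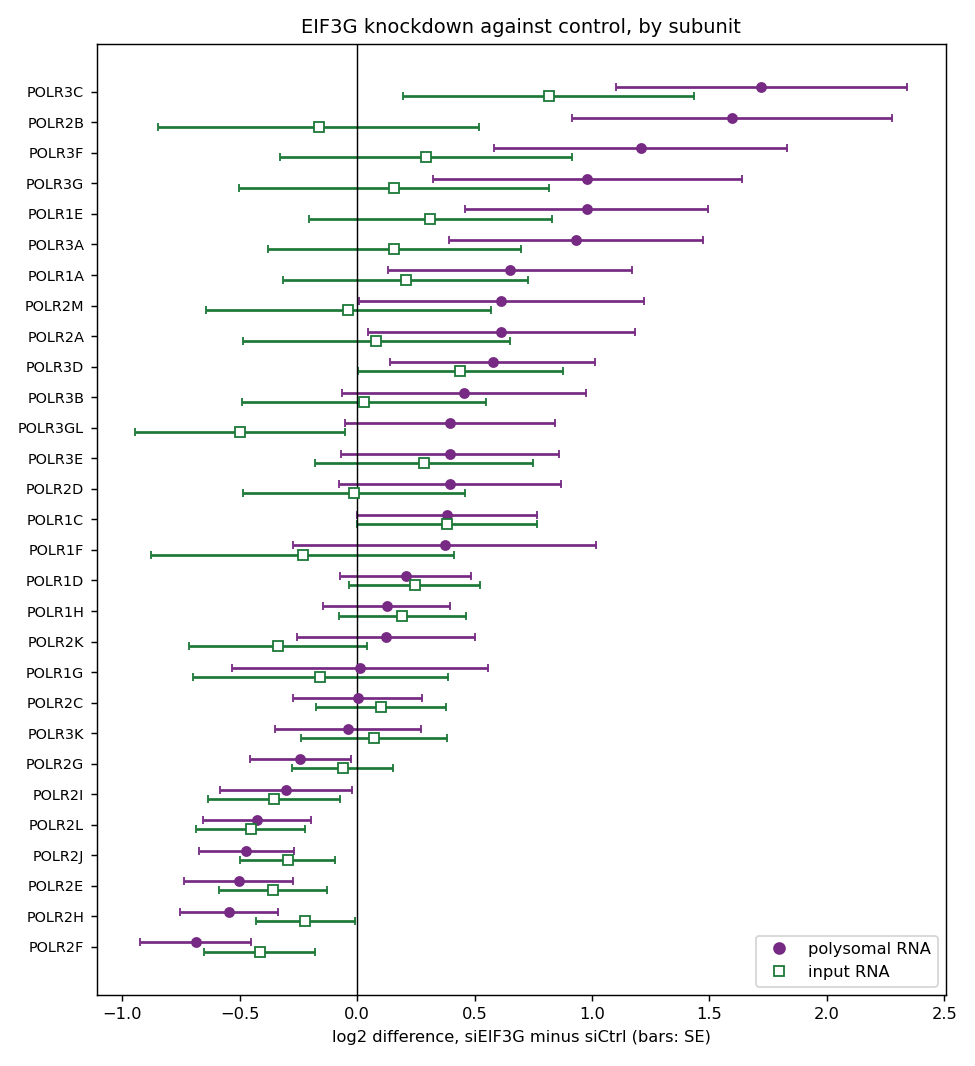
The x axis gives the log2 difference between siEIF3G and siCtrl cells on log2(TPM + 1) for 29 members, with circles for polysomal RNA, squares for input RNA and SE bars from limma. No member passed an adjusted p of 0.05 in either fraction. The polysomal estimates run from -0.69 for POLR2F to 1.72 for POLR3C.

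The factors that work with the polymerases were compared from lists of known genes, in a comparison where 12.9% of all genes were called higher and 45.3% lower. Of 7 RNA polymerase I factors, 0 rose and 3 fell in polysomal against input RNA (TAF1B, TAF1D and TTF1), with a median log2 difference of -1.21. Of 23 general factors of RNA polymerase II, GTF2H4 rose by 1.3 and 8 fell, among them TBP, which binds the TATA box, at -0.87 and CDK7, the kinase of TFIIH, at -1.13, and the median was -0.87. Of 17 RNA polymerase III factors, 4 rose (BRF1, BRF2, GTF3C5 and SNAPC2) and 8 fell, with a median of -0.81. The lowest was GTF3A, the factor that binds the 5S ribosomal RNA gene, at -2.37. Of 10 factors that assemble polymerases or carry them to the nucleus, 3 rose (GPN2, PDRG1 and RUVBL2) and 3 fell (GPN3, RPAP3 and URI1), with a median of 0.01. The median of all genes was -0.75.

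Promoters were read from RefSeq on GRCh38.p14 as the 250 bases before an annotated start, and 22 of the 30 members had such a window. On both strands, CCGGAAG, a core of ETS factor sites, was in the windows of 5 of these 22 members (22.7%), against 10.2% of 27305 genes with a window. The NRF1 half-site GCATGCGC was in 3 of 22 (13.6%), against 3.22% of genes, and the E-box CACGTG in 3 of 22 (13.6%), against 7.73%. TATAAA was in 1 of 22 (4.55%), against 13%, and CCAAT in 6 of 22 (27.3%), against 37%. These counts are too small to be more than a description. The 5 members that hold CCGGAAG were POLR1C, POLR2C, POLR2F, POLR3A and POLR3C, of which POLR1C rose and POLR3A fell in polysomal RNA. The windows of POLR1C and POLR3A are shown because they hold this shared motif and their mRNAs differed in direction. Matches of the ETS, NRF1 and E-box letters are in capitals, and the POLR1C matches lie in part on opposite strands and overlap.
POLR1C, chr6:43516839-43517088, plus strand: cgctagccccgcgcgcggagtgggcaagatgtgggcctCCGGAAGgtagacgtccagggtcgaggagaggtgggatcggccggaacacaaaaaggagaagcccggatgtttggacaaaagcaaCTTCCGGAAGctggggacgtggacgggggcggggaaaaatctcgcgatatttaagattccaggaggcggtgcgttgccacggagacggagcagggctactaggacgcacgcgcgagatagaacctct
POLR3A, chr10:78029516-78029765, minus strand: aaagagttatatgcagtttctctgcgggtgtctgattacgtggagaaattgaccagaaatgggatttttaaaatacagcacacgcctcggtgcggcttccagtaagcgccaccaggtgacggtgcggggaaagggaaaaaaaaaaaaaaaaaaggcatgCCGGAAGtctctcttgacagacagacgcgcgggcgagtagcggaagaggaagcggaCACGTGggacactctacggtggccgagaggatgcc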

How the data were processed

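Values were the deposited TPM (transcripts per 1000000 transcripts), computed by the authors per gene and library from oligo(dT)-enriched RNA. Per the submitters' processing notes RSEM 1.3.1 and the build GRCh38.p13 were used. Which aligner, annotation and filters were used is not given in the sources used here. Library sums are 1000000 within 0.54, so read depth is unknown and no counting interval can be given. TPM are shares, and a change of all mRNAs alike leaves them as they are.

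Values were tested as log2(TPM + 1), which understates the changes of low genes. A mean TPM of 1 or more was required, which kept 10605 genes and set aside 5567. A model with 4 group means was fitted to all 12 libraries with limma 3.58.1 (R 4.3.3), using a mean-variance trend, with 8 residual degrees of freedom. The fit was tried on simulated data with noise independent between genes and libraries. Such data hold no libraries that stand apart, so they cannot show whether the calls hold here. Benjamini-Hochberg adjustment ran over all genes of each of 6 comparisons, and called means an adjusted p under 0.05. Members called in any comparison, the large catalytic subunits and the extremes of each polymerase are given library by library. The values of 1 member are not reported here, though counts and medians over all 30 include it. The members and lists were chosen with earlier results of these data known. Whether libraries with the same replicate number share a culture is not stated, so the main fit did not pair them. A planned relation to protein length was not run, and the relation to level was added after the data were seen. Alternatives changed the pseudocount, filter, scaling, trend, samples fitted, replicate block and libraries.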

Additional observations from a re-analysis of the deposited data

How the results depend on the processing

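Averaged over both siRNAs, members called higher stayed at 6 with every single library left out and numbered 10 with size factors, and members called lower ran between 9 and 17 (17 without siCtrl input replicate 1) and numbered 19 without the 3 libraries that stand apart. The share of all genes moved with these counts: 8.1% to 16.5% higher and 16.0% to 59.4% lower with single libraries left out, 30.0% higher with size factors and 62.1% lower without the 3 libraries. In siEIF3G cells it was 0.415% to 7.43% in both directions together with single libraries left out and 71.1% without the 3, and in siCtrl cells 1.23% to 67.8% and 75.1%. The large catalytic median relative to all genes, -0.76, was -1.13 and -0.37 with pseudocounts of 0.1 and 5 TPM, -1.26 with no filter and -1.33 with a filter at 5 TPM. The filter at 5 TPM set aside POLR1A, POLR3A and POLR3B. In each comparison its value for the large subunits is therefore of POLR2A and POLR2B alone. With no filter the other subunits stood at -0.19, RNA polymerase II at -1.33, RNA polymerase III at -0.39 and the common subunits at 0.51. RNA polymerase II stood at -1.11 with the filter at 5 TPM and -1.10 with quantile normalization, and the common subunits at 0.19 with quantile normalization and 1.60 without the 3 libraries, where RNA polymerase III stood at -0.11. In siEIF3G cells members called higher numbered 1 with no filter, no trend or only the groups compared, against 0.245% to 1.21% of all genes. They numbered 7 without the 3 libraries, against 16.4%, and 1 to 4 with single libraries left out, against 0.189% to 5.05%. Those called lower numbered 0 with size factors, 5 with quantile normalization and 15 without the 3 libraries, against 0.273%, 2.22% and 54.8% of all genes. With single libraries left out they numbered 1 to 4, against 0.226% to 4.36%. The large subunits stood there at -0.91 (pseudocount 0.1), -0.84 (no filter) and -0.92 (filter at 5), and between -0.86 and -0.43 with single libraries left out, and the other subunits at -0.080 with no filter. In siCtrl cells members called higher numbered 3 with only the groups compared, against 3.5% of all genes. They numbered 1 to 6 with single libraries left out, against 0.453% to 9.62%. Those called lower numbered 5 with no filter, 2 with only the groups compared and 19 without the 3 libraries, against 4.32%, 2.25% and 61.8% of all genes. With single libraries left out they numbered 2 to 17, against 0.537% to 58.8%. The large subunits stood at -1.24, -0.34, -1.42 and -1.75 (pseudocounts 0.1 and 5, no filter, filter at 5), and the other subunits at 0.15, -0.20 and 0.17 (pseudocount 5, no filter, filter at 5). Without the 3 libraries, members with every polysomal library below every input library numbered 18, against 58.5% of all genes, and those above numbered 5, against 15.2%. Members lower in every siEIF3G input library numbered 8, against 28.7%. Size factors turned the average difference of POLR1E to 0.11, POLR1G to 0.32, POLR3C to 0.12, POLR3D to 0.42, POLR3E to 0.44 and POLR3GL to 0.24. Quantile normalization turned POLR1G to 0.15, POLR3C to 0.062, POLR3D to 0.37, POLR3E to 0.36 and POLR3F to 0.0095. With the replicate block, 17 members were called in the average comparison, 14 in siCtrl cells and 4 in siEIF3G cells. The shares of all genes were 52.6%, 20% and 3.12%. The block changed no call of a member in the average comparison. Correlations of same-numbered deviations ran from -0.69 to 0.71, with both signs, and do not settle whether same-numbered libraries were paired. No alternative called a member for the knockdown. The causes of these shifts were not tested. The relation to protein length was not run. Read depth, which TPM do not keep, limits what low members such as POLR3B can show.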
